A study of Mus musculus with 2 samples.

Results

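Nrg1, Ereg and Hbegf are 3 ligands of the epidermal growth factor (EGF) family, and their messages were followed through every annotated stromal cell type of the mouse colon and small intestine. The 3 genes were chosen by name, out of 16381 genes in the colon table and 18262 in the small intestinal one, with 16098 genes common to these tables. Both groups were healthy, untreated mice. Live cells lacking EpCAM (an epithelial surface protein) and CD45 (a leukocyte surface protein) were sorted after the epithelium had been stripped and the tissue digested, for 60 min in the colon and 45 min in the small intestine. They were sequenced with a droplet 3′ kit that counts unique molecular identifiers (UMIs), each standing for 1 captured RNA molecule. Each tissue gave 1 library, and the number, age, sex and strain of the animals are not given in the sources used here. In the RefSeq annotation of GRCm38.p6, the assembly behind mm10, Nrg1 is a protein-coding gene at chr8:31807452-32891609, Ereg one at chr5:91074617-91093649, and Hbegf lies on chromosome 18.

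The EGF family signals through 4 receptors, Egfr and Erbb2 to Erbb4. Neuregulin 1, the product of Nrg1, binds ErbB3 and ErbB4, whereas epiregulin (Ereg) and heparin-binding EGF-like growth factor (Hbegf) bind EGFR and ErbB4. These ligands are made as membrane-anchored precursors that metalloproteases of the ADAM family cut free. In the gut, fibroblasts under the epithelium are a known source of ligands that act on crypt cells.

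The colon library held 6018 cells and 40684070 UMIs, the small intestinal library 9359 cells and 58134526 UMIs, with medians of 6598 and 5943 UMIs per cell. The authors' annotation gave 6 types with at least 50 cells in both libraries. These were CD81- fibroblasts (CD81- FBs, 3631 cells in the colon and 2823 in the small intestine), CD81+ trophocytes (875 and 1913), PDGFRa-high subepithelial myofibroblasts (SEMFs, 1105 and 1109), lymphatic endothelial cells (LECs, 217 and 2498), blood endothelial cells (BECs, 53 and 524) and smooth muscle cells (SMCs, 125 and 468). Each type had its own markers at their highest summed level among the 6 types of its tissue, with 1 exception. The 4 CD81- FB markers (Adamdec1, Edil3, Fgfr2 and Col15a1) summed to 9719 CPM in small intestinal SMCs and to 9333 CPM in small intestinal CD81- FBs, while colon SMCs had 1484 CPM. CPM are the UMIs of a gene per 1000000 UMIs of the type. Values for small intestinal SMCs therefore stand beside a fibroblast signal whose part in them was not tested. The 2 libraries share 21 cell barcodes. With 1 library per tissue there is no replicate error and no test was possible. All intervals below are exact 95% intervals that cover counting error only, and levels are given beside the share of cells with a UMI. Tissue cannot be told apart from digestion time, nor from the sex of the animals, which is not given. Levels of different genes are not compared with each other.

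Nrg1 was a gene of SEMFs, SMCs and CD81- FBs in both tissues, and its highest level of all was in colon SEMFs. There it reached 305 CPM (292.6 to 317.8), from 2268 UMIs, and 485 of 1105 cells (43.9%, 40.9 to 46.9%) held at least 1 UMI. SEMFs were 18.4% of the colon cells and gave 64.5% of the library's Nrg1 UMIs. Colon SMCs followed at 124 CPM, CD81- FBs at 44.9 CPM and LECs at 18.8 CPM, each step down being larger than the counting intervals. The LEC value rests on 20 UMIs in 9 cells, 9 of them in 1 cell, and the SMC value is 81.7 CPM without the 1 cell that held 35 UMIs. CD81+ trophocytes, the Grem1-rich fibroblasts below the crypts, had only 2.83 CPM. No Nrg1 UMI was found in 53 colon BECs, which allows a share of up to 5.66% of cells with a UMI.

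In the small intestine the order of types was different. SMCs came first at 108 CPM (95.8 to 120), followed by SEMFs at 66.4 CPM (60.3 to 72.9) and CD81- FBs at 65.6 CPM (62.1 to 69.2). The last pair could not be told apart by their intervals. In this library 62.6% of the Nrg1 UMIs came from CD81- FBs and 20.5% from SEMFs. Trophocytes (2.40 CPM) and LECs (1.07 CPM) were close to the bottom. BECs held 0 UMIs in 524 cells, which allows up to 0.573% of cells with a UMI, at a median of 3651.5 UMIs per cell, the lowest of the 6 types.

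**Figure D1:**
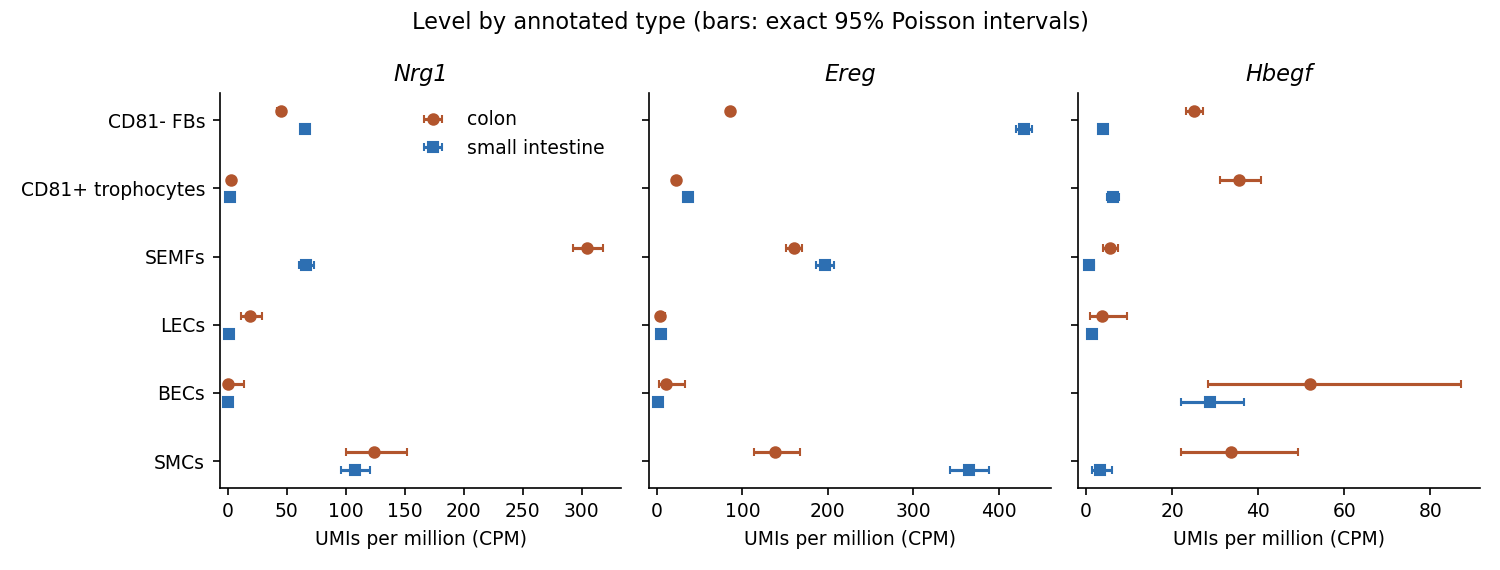
Levels of Nrg1, Ereg and Hbegf in CPM (horizontal axes, linear) in 6 annotated types (vertical axis) of the colon (circles) and small intestine (squares), with exact 95% Poisson intervals. Nrg1 stands at 305 CPM in colon SEMFs, Ereg at 429 CPM in small intestinal CD81- FBs, and the Hbegf value is higher in the colon in each of the 6 types, with overlapping intervals in BECs and LECs.

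Between tissues, Nrg1 went in opposite directions in 2 neighbouring fibroblast types. In SEMFs it was 4.59-fold higher in the colon (log2 ratio 2.20, 2.05 to 2.35). In CD81- FBs it was lower in the colon, with a log2 ratio of -0.55 (-0.66 to -0.43). The median gene moved by -0.33 in SEMFs and by -0.24 in CD81- FBs, so that relative to it the 2 values are 2.53 and -0.31. The share of positive CD81- FBs hardly differed (10.9% in the colon, 11.4% in the small intestine), while that of SEMFs was 43.9% against 14.9%. With each cell thinned to 3000 UMIs the SEMF shares were 33.0% and 10.1%. Over all fibroblasts together the Nrg1 log2 ratio was 1.04, a sum over types that differ in sign. In SMCs it was 0.21, with an interval from -0.14 to 0.54 that includes no difference, and -0.32 once the top Nrg1 cell of each library was left out.

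The colon cells were also split by the sex-linked RNA they held, as some had Y-linked UMIs and others Xist UMIs. Xist is not listed for the small intestine, so its cells were not split. Either group of colon cells was therefore set against all small intestinal cells, and sex cannot be told apart from tissue. In SEMFs with Y-linked UMIs and no Xist UMI, Nrg1 stood at 329 CPM (162 of 323 cells positive), and in SEMFs with Xist UMIs only at 303 CPM. Both values lie far above the 66.4 CPM of the small intestine. In CD81- FBs the same split gave 39.2 and 54.1 CPM, and the log2 ratio to the small intestine was -0.74 and -0.28.

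Nrg1 was unevenly spread over the positive cells. In colon SEMFs 176 cells had 1 UMI, 186 had 2 to 4 and 123 had 5 or more, and those 123 cells held 69.4% of the type's Nrg1 UMIs. A single cell held 183 UMIs, 8.07% of the sum. In small intestinal CD81- FBs, 70 of 2823 cells had 5 or more UMIs and held 64.8% of the UMIs. In colon CD81- FBs 46 such cells held 49.3%. Among CD81- FBs, a small minority of the cells thus held from 49.3% to 64.8% of the Nrg1 RNA. Positive cells were also deeper, with a median of 6963 against 5832 UMIs in colon SEMFs. Positive and negative cells were therefore compared within 5 depth strata below. Groups of cells by number of Nrg1 UMIs were pooled without such strata.

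Ereg had its highest level in small intestinal CD81- FBs. There it reached 429 CPM (420 to 438), and 1967 of 2823 cells (69.7%) were positive. Small intestinal SMCs had 365 CPM (67.5% of cells), SEMFs 196 CPM (45.8%) and trophocytes 36.3 CPM (10.3%), with no overlap between neighbouring intervals. In the colon, SEMFs (160 CPM) and SMCs (139 CPM) had overlapping intervals and stood above CD81- FBs (85.9 CPM, 29.6% of cells) and trophocytes (22.0 CPM). The background was low, with Ereg in 1.00% of small intestinal LECs (5.18 CPM) and 0.763% of BECs (1.82 CPM).

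In CD81- FBs Ereg was 5.00-fold lower in the colon (log2 ratio -2.32, -2.39 to -2.25). After thinning to 3000 UMIs the share of positive CD81- FBs was 17.3% in the colon and 50.1% in the small intestine. SMCs had a log2 ratio of -1.40 (-1.70 to -1.11), beside the fibroblast signal given above, and trophocytes one of -0.72. In colon trophocytes the value differed with the sex-linked split, from 9.08 CPM in cells with Y-linked UMIs only to 30.9 CPM in cells with Xist only. SEMFs, at -0.30 (-0.41 to -0.18), differed between the tissues by as much as the median gene of the type (-0.33). Relative to the median gene, Ereg stood at -2.08 in CD81- FBs and at 0.04 in SEMFs.

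Hbegf was the gene of BECs and, in the colon, also of trophocytes, SMCs and CD81- FBs. Colon BECs had 51.9 CPM (28.4 to 87.1), from 14 UMIs in 6 of 53 cells, trophocytes 35.7 CPM, SMCs 33.7 CPM and CD81- FBs 25.1 CPM. The intervals of neighbours in this order overlap. SEMFs stood apart at 5.51 CPM, 4.56-fold under CD81- FBs. In the small intestine BECs had 28.7 CPM (22.1 to 36.8), and every other type lay at 6.19 CPM or less. SEMFs, with 5 UMIs in 1109 cells, were the lowest there at 0.767 CPM, although their interval overlaps that of LECs.

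Hbegf was higher in the colon in all fibroblast types. The log2 ratio was 2.70 (2.36 to 3.06) in CD81- FBs, 2.53 (2.17 to 2.89) in trophocytes and 2.85 (1.51 to 4.54) in SEMFs, the last from 41 and 5 UMIs. In SMCs it was 3.39 (2.25 to 4.67), from 26 and 9 UMIs. BECs had 0.85, with an interval from -0.10 to 1.70 that includes no difference. Colon cells with Y-linked UMIs only and with Xist only gave 20.02 and 24.8 CPM in CD81- FBs and 46.3 and 30.9 CPM in trophocytes, against 3.87 and 6.19 CPM in the small intestine. Positive CD81- FBs were 9.75% of the colon's and 1.56% of the small intestine's, or 5.69% and 0.853% at 3000 UMIs per cell.

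A ratio of 2-fold or more between tissues was counted for all genes with a mean of 5 CPM or more. In CD81- FBs 2 of the 3 ligands were past it (Ereg lower and Hbegf higher in the colon), as were 14.4% of 10663 genes (4.5% higher in the colon and 9.89% in the small intestine). In SEMFs Nrg1 was past it, against 21.1% of genes (5.76% higher in the colon and 15.4% in the small intestine), and Hbegf was under the 5 CPM limit there. In trophocytes it was Hbegf, against 12.5% of genes (4.85% and 7.62%), and in SMCs Ereg and Hbegf, against 24.2% (6.82% and 17.4%). In LECs Nrg1 was past it, from 20 and 12 UMIs, against 19.6% (6.49% higher in the colon). Fibroblast markers were also higher in colon LECs, with SEMF markers at 224 against 81.6 CPM and CD81- FB markers at 679.6 against 207.5 CPM, and their part in the Nrg1 value was not tested. In BECs Ereg was past it, from 3 and 4 UMIs, against 29.1%. CD81- FB markers (1847 against 357 CPM) and SEMF markers (167 against 70.2 CPM) were higher in colon than in small intestinal BECs. LEC markers were at 1265 CPM in small intestinal and 29.7 CPM in colon BECs. The part of these markers in the Ereg and Hbegf values of BECs was not tested. Over all fibroblasts together, all 3 ligands were past 2-fold, against 12.6% of genes (4.07% higher in the colon and 8.55% in the small intestine). For Nrg1, at 1.04, that call ended when CPM were averaged over cells (0.84) or cells thinned to 3000 UMIs (0.86).

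**Figure D2:**
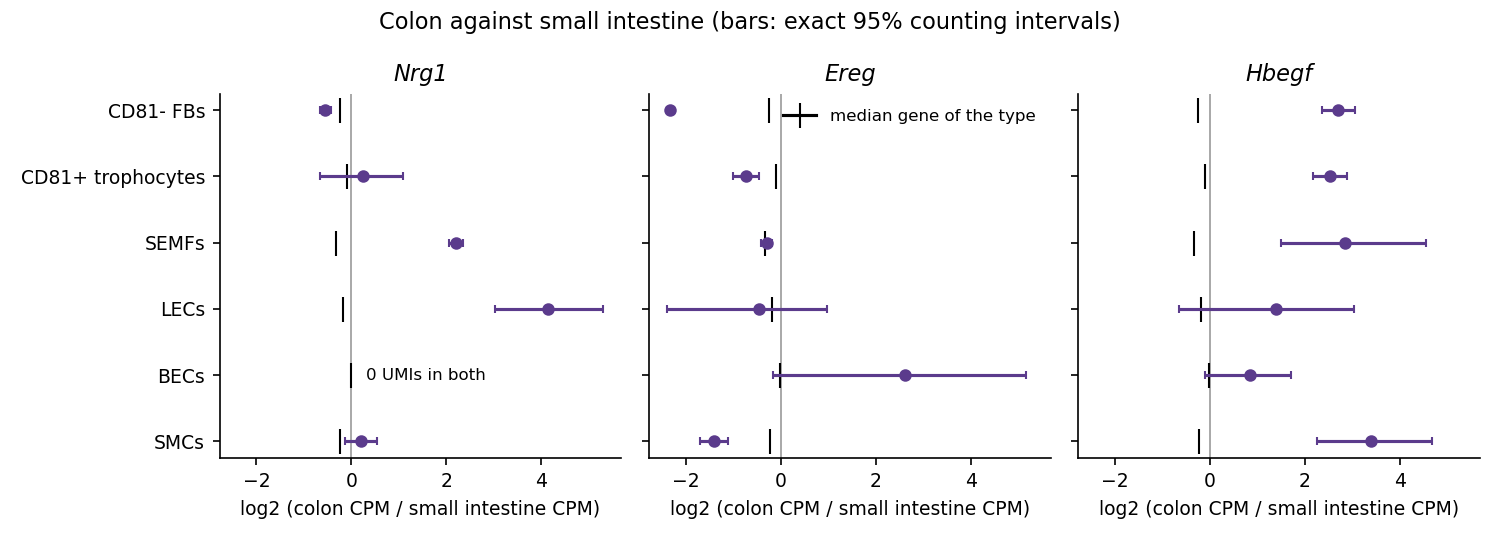
Log2 ratio of colon to small intestinal CPM (horizontal axes) for Nrg1, Ereg and Hbegf in 6 types (vertical axis), with exact 95% counting intervals and the median gene of each type as a tick. Nrg1 is at 2.20 in SEMFs and -0.55 in CD81- FBs, Ereg at -2.32 in CD81- FBs and -0.30 in SEMFs, and Hbegf at 2.53 to 2.85 in the 3 fibroblast types.

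Genes that respond to tissue handling also differed between the libraries. In SEMFs, 7 of 8 immediate early genes (such as Fos, from 346 CPM in the small intestine to 1257 CPM in the colon) and 4 of 4 heat shock genes were 2-fold or more higher in the colon. In CD81- FBs 0 of 8 immediate early genes and 1 of 4 heat shock genes (Hspa1a) were, and in trophocytes 0 of 8 and 0 of 4, with Fosb lower in the colon. In LECs 6 of 8 and in BECs 4 of 8 immediate early genes were 2-fold or more lower in the colon, and 0 were higher. Of 4 heat shock genes, 2 were lower in colon LECs and 2 higher in colon BECs. Hbegf is itself a known early response gene. The part of handling in the ratios was not tested.

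Which other genes marked the Nrg1-positive cells was asked within each type and library. UMIs of each gene in cells with 1 or more Nrg1 UMI were set against those expected from Nrg1-negative cells of the same depth stratum. Colon SEMFs had 216 genes 2-fold or more higher (2.94% of 7347) and 73 lower (0.994%) in positive cells. Small intestinal CD81- FBs had 194 (2.39% of 8120) and 193 (2.38%), and colon CD81- FBs 83 (1.12% of 7421) and 71 (0.957%). Small intestinal SEMFs had 66 (0.839% of 7866) and 30 (0.381%), and small intestinal SMCs 169 (2.37% of 7119) and 230 (3.23%).

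In colon SEMFs the 5 highest genes of the positive cells were Fgf7, Ptprr, Plau, Tbxas1 and Bcr. All 5 had a UMI in only 3.23 to 6.77% of negative cells. They thus passed the filter on low values only through the positive cells. Fgf7, the keratinocyte growth factor that acts on epithelium, stood at 126 CPM in positive cells against 8.17 CPM expected, a log2 ratio of 3.95 (3.82 to 4.08). Ptprr, a tyrosine phosphatase that acts on ERK kinases, was at 133 against 8.59 CPM. Plau, the urokinase plasminogen activator, was at 133 against 16.7 CPM, and Tbxas1, thromboxane A synthase, at 70.5 against 5.15 CPM. Bcr was at 72.7 against 5.06 CPM. The 3 lowest were Igfbp5 (57.3 against 363 CPM), the secreted Wnt inhibitor Wif1 (10.9 against 56.3 CPM) and the actin-binding muscle protein gene Tagln (571 against 1825 CPM). Wif1 passed only through the negative cells. Acta2, smooth muscle actin, was at 933 against 2028 CPM.

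These levels were also taken by number of Nrg1 UMIs, in groups not matched for depth. In colon SEMFs the median rose from 5831.5 UMIs per cell without Nrg1 to 7841 with 5 or more. Apart from Ereg, the genes were chosen above from the same cells, so that a difference from cells without Nrg1 was built in. In colon SEMFs, Fgf7 was at 8.55 CPM in cells without Nrg1, 38.9 CPM in cells with 1 UMI, 64.2 CPM with 2 to 4 and 307 CPM with 5 or more. Ptprr went from 9.07 through 48.0 and 98.9 to 274 CPM, and Tagln from 1630 through 1012 and 522 to 120 CPM. The intervals of neighbouring groups did not overlap for Ptprr and Tagln. For Fgf7 they overlapped between cells with 1 UMI and with 2 to 4, as they did for Tbxas1 (44.7 and 55.1 CPM) and Igfbp5 (75.3 and 63.4 CPM). Ereg itself went from 123 to 277 CPM over the same 4 groups of cells.

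Of 17 epithelial niche signals, 11 were detected well enough in colon SEMFs to be compared. In Nrg1-positive cells Fgf7, Bmp2 (log2 ratio 1.19) and Wnt4 (1.21) were 2-fold or more higher, and Bmp3 (-1.03) was lower, while all 17 together summed to 5902 against 6247 CPM. The Notch ligand gene Dll1 was the 1 of 8 SEMF markers past 2-fold (2.29). Fgf7 and Dll1 passed the filter on low values only through the positive cells. Immediate early genes moved with the same cells. In them 7 of 8 were 2-fold or more higher, with a median log2 ratio of 1.35 and a summed level of 7474 against 3251 CPM, and the part of this in the other differences was not tested. Markers of glia (4.20 CPM summed), immune cells (8.67 CPM) and epithelium (1.12 CPM) were near 0 in the positive cells. Trophocyte markers (686 against 391 CPM), CD81- FB markers (5148 against 3753 CPM) and BEC markers (45.9 against 20.9 CPM) were higher there. SMC markers (1578 against 3954 CPM) and pericyte markers (87.3 against 148 CPM) were lower. Over all colon SEMFs, Ly6a made up 506 of 542 CPM of the trophocyte markers, and Adamdec1 4542 of 4685 CPM of the CD81- FB markers. The part of these markers in the differences was not tested.

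**Figure D3:**
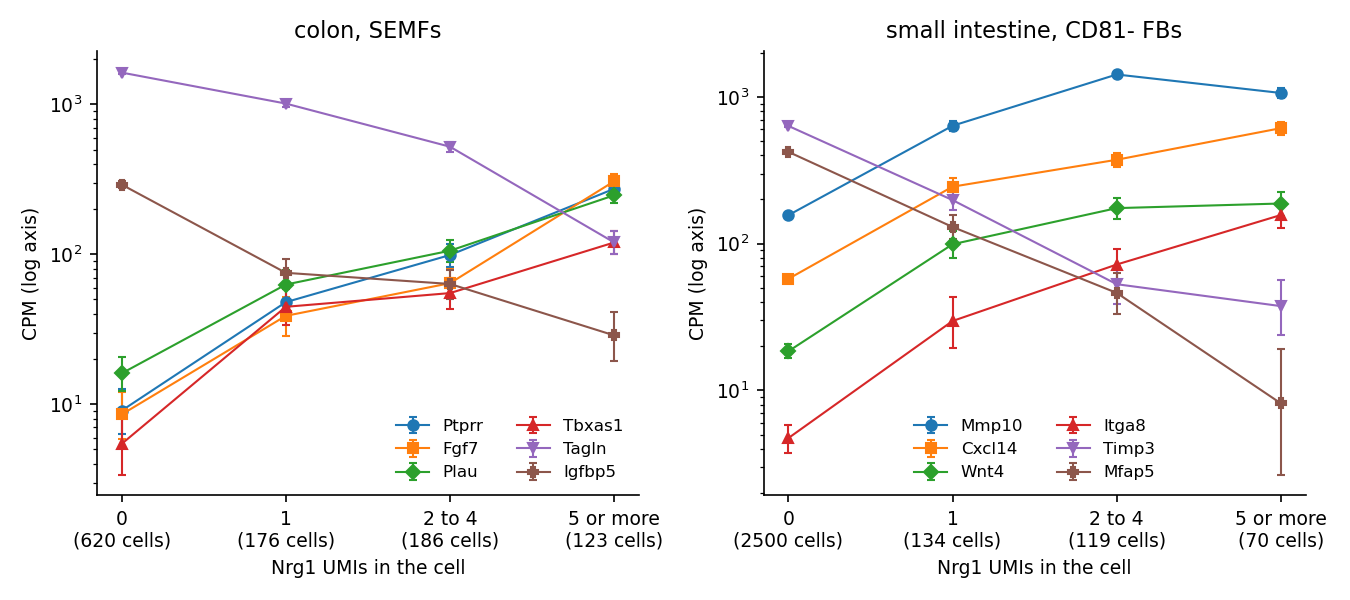
CPM (log axes, exact 95% Poisson intervals) of 6 genes against the number of Nrg1 UMIs in the cell, in colon SEMFs (left) and small intestinal CD81- FBs (right). Cell numbers stand under the groups, which were not matched for depth. The genes were chosen from the same cells. In colon SEMFs Fgf7 goes from 8.55 to 307 CPM and Tagln from 1630 to 120 CPM, and in small intestinal CD81- FBs Cxcl14 goes from 57.5 to 612 CPM and Mfap5 from 422 to 8.16 CPM. Mmp10 there rises from 156 to 1420 CPM in cells with 2 to 4 Nrg1 UMIs and is lower, at 1062 CPM, with 5 or more.

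Small intestinal SEMFs had a different leading group. Postn, which encodes the matrix protein periostin, was at 138 against 11.6 CPM in positive cells (log2 ratio 3.57), and Col6a4, a collagen VI chain, at 71.2 against 3.75 CPM (4.25). The G protein regulator Rgs6 (150.5 against 21.9 CPM), the bradykinin receptor Bdkrb2 (55.9 against 5.89 CPM) and Ccdc3 (81.1 against 17.0 CPM) followed. All 5 had a UMI in only 1.48 to 6.67% of negative cells and passed the filter only through the positive cells. Igfbp5 was the lowest here too, at 452 against 1569 CPM. With Serpinb6b (76.6 against 169 CPM) and 6030407O03Rik (11.7 against 34.0 CPM) it made up the 3 lowest. Of these, 6030407O03Rik passed only through the negative cells. In the 24 cells with 5 or more Nrg1 UMIs Postn stood at 550 CPM and Igfbp5 at 27.5 CPM. Immediate early genes did not go with Nrg1 in these cells (0 of 7 past 2-fold, median -0.12).

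Between the tissues, 13 genes were 2-fold or more higher in Nrg1-positive SEMFs of both, of 6833 that could be compared in both. They make up 12.4% of 105 colon genes and 33.3% of 39 small intestinal genes. Among them were Postn, Col6a4, Bdkrb2, the neurotrophin gene Ntf3, the endothelin receptor Ednrb and Glp2r, the receptor of glucagon-like peptide 2. Only Igfbp5 and Wif1 were lower in both. Postn, Col6a4 and Bdkrb2 passed the filter on low values in the small intestine only through the positive cells. In the colon Wif1 passed only through the negative cells.

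In Nrg1-positive CD81- FBs of the small intestine the 5 highest were Mmp10, the matrix protease stromelysin-2 (1033 against 151 CPM), the integrin gene Itga8 (77.6 against 4.602 CPM), the chemokine gene Cxcl14 (385 against 56.1 CPM), Wnt4 (149 against 18.0 CPM) and Frmd5 (180 against 24.1 CPM). Itga8, Wnt4 and Frmd5 passed the filter on low values only through the positive cells. The lowest were Timp3, an inhibitor of matrix proteases (104 against 646 CPM), the microfibril gene Mfap5 (68.1 against 431 CPM) and the Wnt modulator Dkk2 (33.2 against 221 CPM). Dkk2 passed only through the negative cells. Of 8 SEMF markers, 7 passed the filter on low values, but Bmp7, Dll1 and Foxl1 did so only through the positive cells, and Dll1 was lower in the SEMFs of this tissue (1.53 CPM) than in its CD81- FBs (9.57 CPM). Of the 4 found in 10% of cells on both sides, Bmp5 (354 against 166 CPM) and Wnt5a (50.2 against 19.7 CPM) were 2-fold or more higher, and F3 (log2 ratio -0.33) and Pdgfra (-0.11) were not. The 7 trophocyte markers summed to 608 against 1509 CPM. Cd34, Grem1 and Ly6a were 2-fold or more lower, as was Ackr4, which passed only through the negative cells.

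In Nrg1-positive colon CD81- FBs the 5 highest genes were others. Agt, angiotensinogen, was at 179 against 45.1 CPM, the fatty acid transporter gene Cd36 at 193 against 49.5 CPM, and the carboxylesterase gene Ces1g at 61.9 against 11.3 CPM. Tgfbi, a matrix protein gene, was at 109 against 28.8 CPM and the mechanically gated channel Piezo2 at 31.6 against 3.98 CPM. Cd36, Ces1g and Piezo2 passed the filter on low values only through the positive cells. The lowest were Mgp, matrix Gla protein (836 against 2702 CPM), Frmpd4 (91.9 against 298 CPM) and Sfrp2, a secreted Wnt modulator (9.67 against 48.4 CPM). Sfrp2 passed only through the negative cells. Cd36 is also a marker of capillary endothelium, and the 6 BEC markers summed to 200.9 against 64.0 CPM, of which Cd36 made up 193 CPM in positive cells. Of 6 SEMF markers, 3 were past 2-fold (Bmp7, F3 and Wnt5a; median 0.93), and Grem1 was the 1 of 4 trophocyte markers that was 2-fold lower (-1.02), with a summed level of 986 against 1306 CPM for all 7. In cells with 5 or more Nrg1 UMIs, Mgp stood at 71.3 CPM, against 2787 CPM in cells without Nrg1.

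In CD81- FBs, many of the colon genes recurred in the small intestine. Of 7058 genes that could be compared in both libraries, 26 were 2-fold or more higher in both, or 51.0% of 51 colon genes and 21.5% of 121 small intestinal genes. They include the signalling genes Wnt5a, Bmp7, Ntf3, Il34 and Cxcl14, the gap junction gene Gja1 and the transcription factor gene Tbx3. Lower in both were 35 genes, or 61.4% of 57 colon genes and 23.0% of 152 small intestinal genes. These include the BMP antagonists Grem1 and Chrd, the cytokine gene Il33, complement C3 and the matrix genes Mgp, Mfap5 and Lum. Whether this overlap differs from that in SEMFs was not tested.

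**Figure D4:**
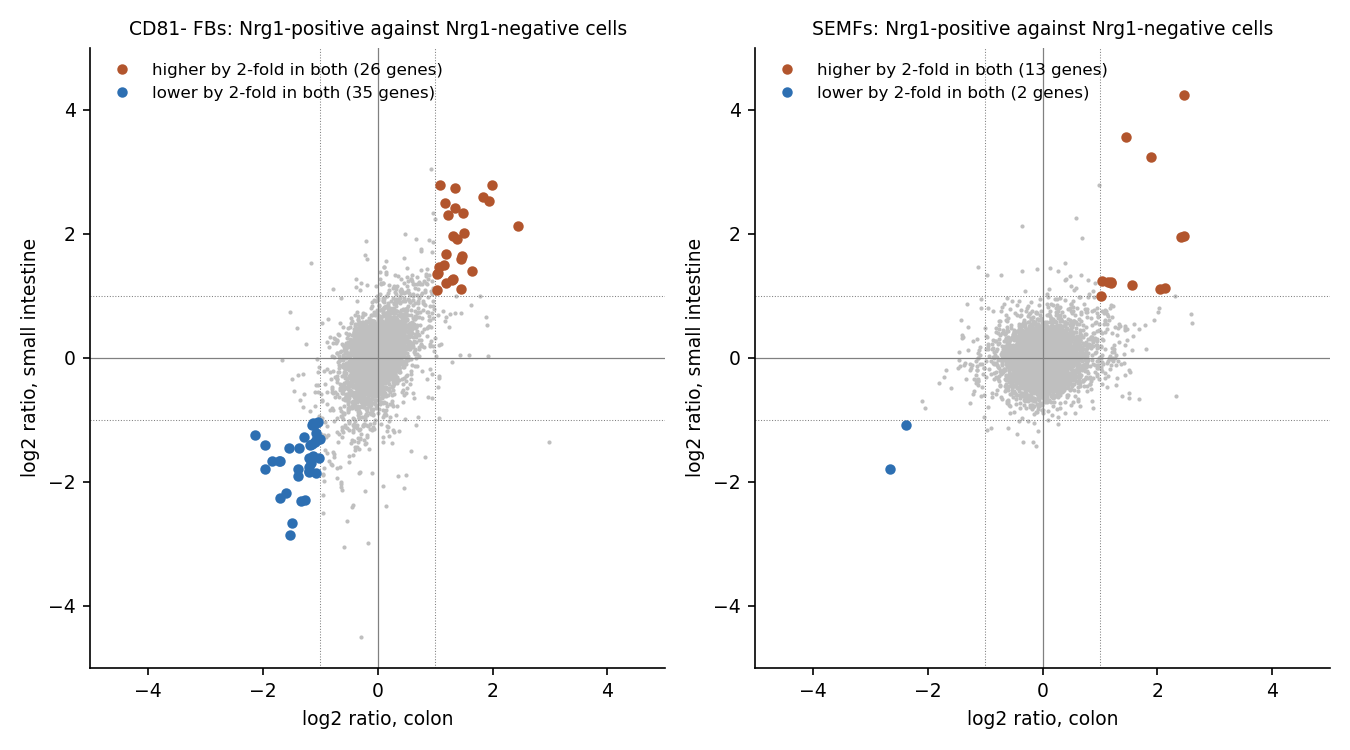
Log2 ratio of each gene in Nrg1-positive over depth-matched Nrg1-negative cells, colon (horizontal axes) against small intestine (vertical axes), for CD81- FBs (left) and SEMFs (right). Each point is a gene, dotted lines mark 2-fold. Coloured points are 2-fold or more higher (26 genes in CD81- FBs, 13 in SEMFs) or lower (35 and 2) in both libraries. They include genes that passed the filter on low values only through the cells where they were higher.

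Some signals went with Nrg1 in opposite directions in colon SEMFs and small intestinal CD81- FBs, which gave most of the Nrg1 UMIs of their libraries. Fgf7 was higher in Nrg1-positive colon SEMFs, as given above, and lower in Nrg1-positive small intestinal CD81- FBs, at 3 UMIs against 67.7 expected. Fgf7 passed the filter on low values only through the positive cells in colon SEMFs and only through the negative cells in small intestinal CD81- FBs. It could thus be called in these directions only. Immediate early genes were higher in the former, whereas in the latter 4 of 8 were 2-fold or more lower (Atf3, Fos, Fosb and Ier2), with a summed level of 2776 against 5422 CPM, as were the heat shock genes Hspa1a and Hspa1b. Acta2 was lower in the former and higher in the latter, at 703 against 292 CPM (log2 ratio 1.27). These are different cell types as well as different tissues, and the differences were not tested.

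In small intestinal SMCs the positive cells had more RNA of SMC markers. Of 6 SMC markers, 4 were 2-fold or more higher (Actg2, Cnn1, Des and Myh11, with Myh11 at 2599 against 1185 CPM), and the trophocyte markers Cd34, Grem1 and Ly6a were lower, Grem1 passing the filter only through the negative cells. Pak3 (188 against 36.0 CPM), the actin gene Actc1 (178 against 37.2 CPM), the cadherin-like gene Fat3, the cation channel gene Trpc6 and Frmd5 led. Actc1 and Fat3 passed the filter only through the positive cells. Frmd5 was also among the 5 highest of small intestinal CD81- FBs. The BMP antagonist gene Grem1 (35.0 against 208 CPM) and Dkk2 (11.7 against 137 CPM) were among the 3 lowest. Dkk2 too passed only through the negative cells. The summed CD81- FB markers were at 9164 against 9832 CPM, with Col15a1 and Edil3 2-fold or more lower, Edil3 again passing only through the negative cells. The summed LEC markers were at 265 against 138 CPM and the BEC markers at 173 against 72.5 CPM, and their part in these differences was not tested.

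Co-detection of Nrg1 and Ereg was compared as shares of cells and as Ereg levels. In colon SEMFs, 42.7% of Nrg1-positive cells also had Ereg, against 41.7% expected at the same depth, and in colon CD81- FBs 34.0% against 33.0%. Small intestinal SEMFs had Ereg in 63.6% (55.8 to 71.0%) of Nrg1-positive cells against 46.4% expected. In small intestinal CD81- FBs the values were 67.5% and 70.5%. The Ereg level in Nrg1-positive cells was above the expected one in colon SEMFs (199 against 126 CPM), small intestinal SEMFs (272 against 179 CPM) and colon CD81- FBs (117 against 86.5 CPM), and under it in small intestinal CD81- FBs (330.3 against 443 CPM) and SMCs (331 against 375 CPM). Btc, betacellulin, which binds EGFR and ErbB4, was found in 10.52% (7.93 to 13.6%) of Nrg1-positive colon SEMFs against 24.7% expected. In small intestinal CD81- FBs it was found in 17.6% (13.6 to 22.3%) against 9.73%.

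Ereg-positive CD81- FBs and SEMFs were set apart by 0 to 15 higher genes. In small intestinal CD81- FBs 0 of 7761 genes were 2-fold higher and 0 lower in Ereg-positive cells. In colon CD81- FBs 1 was higher (Ccl2, 97.0 against 46.4 CPM) and 1 lower of 7244 (0.0138% each). Ccl2 passed the filter on low values only through the positive cells. Its log2 ratio of 1.06 was 0.31 with Y-linked UMIs only, 0.75 with Xist only, 0.96 without the highest doublet scores and 0.97 after thinning. It was 1.04 without depth strata and 1.19 with 2 or more Ereg UMIs. The 3 ranked highest in small intestinal CD81- FBs were the phosphodiesterase gene Pde10a (153 against 90.9 CPM), the ectonucleotidase gene Entpd1 and Vwc2. Colon SEMFs had 3 higher genes (Dmac2l, Osgin1 and Trabd2b, 0.0413% of 7267) and 2 lower (0.0275%). In small intestinal SEMFs 15 of 7690 genes were higher (0.195%) and 2 lower (0.026%), led by Sfrp1 at a log2 ratio of 2.497, Fbln1 (2.12) and Matn2 (1.87). Without the cells with the highest doublet scores these log2 ratios were 0.31, 0.07 and 0.80. The 3 named SEMF genes of each tissue passed the filter on low values only through the Ereg-positive cells.

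In trophocytes, where Ereg was rare, 99 genes were higher (1.3%) and 194 lower (2.55%) of 7604 in the colon, and 48 higher (0.603%) and 53 lower (0.666%) of 7956 in the small intestine. Adamdec1, a CD81- FB marker, was at 639 against 160 CPM in Ereg-positive colon trophocytes, a log2 ratio of 2.00 that was 1.22 without the highest doublet scores. Among 7093 genes compared in both tissues, 53 were higher in the colon and 37 in the small intestine. Adamdec1, Aldh1a2 and Dach1 were higher in both. In SMCs, 56 genes were higher in the colon (2.35% of 2385), with Runx1, Taf13 and Glis3 ranked highest, of which Taf13 and Glis3 changed direction when cells were thinned to 3000 UMIs. In small intestinal SMCs 85 were higher (1.2% of 7078), with Polr3b, Btbd2 and Mtm1 ranked highest. Each of these named genes passed the filter only through the Ereg-positive cells.

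Hbegf-positive CD81- FBs could be compared in the colon, where 5 of 7354 genes were 2-fold higher (0.068%) and 1 lower (0.0136%). Plekhm2 (41.8 against 18.3 CPM) and the immediate early gene Fosb (416 against 234 CPM, log2 ratio 0.83) were among the 3 ranked highest, and Plekhm2 changed direction in cells with Y-linked UMIs only. In colon trophocytes 35 genes were higher (0.478%) and 44 lower (0.602%), with Mest, P2rx7 and Glra1 ranked highest. Each of these named genes passed the filter only through the Hbegf-positive cells. In small intestinal trophocytes 88 were higher (1.12%) and 229 lower (2.92%), with Epha7, Trib1 and Sowahc ranked highest. Epha7 changed direction there when cells were thinned. Among 6883 genes compared in both tissues, 16 were higher in the colon and 25 in the small intestine. Coq6 was the 1 gene higher in both.

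The other 8 ligands of the family differed in the type with their highest level. Nrg2, a second neuregulin, was a SEMF gene in both tissues (148 and 150 CPM) with a log2 tissue ratio of -0.02. Areg, amphiregulin, was highest in SMCs (86.8 CPM in colon SMCs, 28.9 CPM in small intestinal SMCs). Btc was highest in SEMFs in the colon (31.5 CPM), and in the small intestine it was about equal in CD81- FBs (18.0 CPM) and SEMFs (17.3 CPM), with a log2 tissue ratio of -1.56 in CD81- FBs. Tgfa, listed for the small intestine only, was an endothelial gene (12.8 CPM in BECs, 7.41 CPM in LECs). Egf, Nrg3, Nrg4 and Epgn, the last listed for the small intestine only, stayed at 2.85 CPM or less in all 6 types where listed.

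Among the receptors, Egfr was highest in trophocytes (298 CPM in the colon, 445 CPM in the small intestine), and in CD81- FBs it was lower in the colon (166 against 350 CPM, log2 ratio -1.08). Erbb2, which binds no ligand of its own, was at 13.0 CPM or less in every type. Erbb3 was at 0.785 CPM or less, and Erbb4, listed for the colon only, at 0.538 CPM or less. The receptors that bind neuregulin 1 were thus at or near 0 in the types with Nrg1, as far as they are listed.

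Of 8 genes for ligand release, 3 were 2-fold or more lower in colon than in small intestinal SEMFs (Adam9, Adam10 and Adam12), 0 were higher, and the median log2 ratio was -0.56, beside -0.33 for all genes, of which 15.4% were 2-fold lower and 5.76% higher in the colon. Adam19, a protease known to cut neuregulin, was highest in SEMFs in both tissues (585 and 929 CPM), and in CD81- FBs it was higher in the colon (163 against 80.6 CPM). Adam17, the main releasing protease of epiregulin and Hbegf, stood at 20.7 to 62.8 CPM in the 12 populations. Of 7 feedback inhibitors of the receptors, Lrig1 and Dusp6 were 2-fold or more lower in colon SEMFs and 0 were higher, with a median of -0.67. In trophocytes, where 4.85% of all genes were 2-fold higher and 7.62% lower in the colon, Spry1 and Spry4 were higher. Of 4 measurable ERK target genes in SEMFs, Ier3 was higher in the colon (249 against 21.9 CPM). In trophocytes 3 of 5 were higher (Dusp5, Ier3 and Myc) and Phlda1 was lower.

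**Figure D5:**
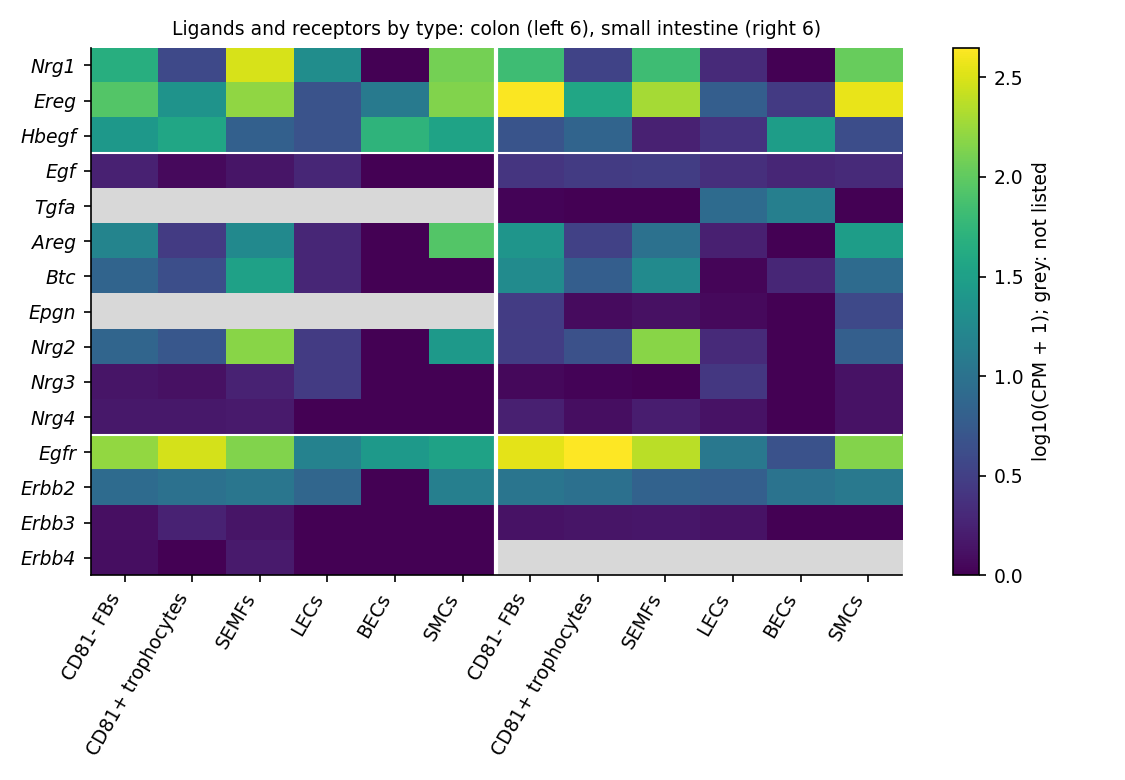
Levels of the 3 ligands, the other 8 family ligands and the 4 receptors (rows, top to bottom) in 6 types of the colon and 6 of the small intestine (columns), as log10(CPM + 1). Grey marks a gene not listed for that library. Egfr is high in the 3 fibroblast types of both tissues, and Erbb3 and Erbb4 are at 0.785 CPM or less.

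Likeness of pattern was measured as Pearson's r of log2(CPM + 1) over the 12 populations, which share libraries, among 6083 genes with 50 CPM or more in any of them. The genes most like Nrg1 were Runx2 (r = 0.96), Chsy3, Syt13, Glo1 and Suclg1. Runx2, a transcription factor known from bone, went from 103 CPM in colon SEMFs to 5.497 CPM in colon trophocytes, but in small intestinal SEMFs it was at 137 CPM, above the colon value. Most like Hbegf were S100a4 (0.93), Sertad1, Nasp, Tuba1c and Slbp. Most like Ereg were Grk3 (0.96), Gm19610, Daam2, Mthfd2l and Pag1.

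Of the 5 genes most like Ereg, 2 are its neighbours on chromosome 5. In the GENCODE annotation of GRCm38, Gm19610 is an antisense gene at chr5:91051871-91074773 that overlaps the first 152 bp of Ereg on the opposite strand. How strand was used in the counting is not given in the sources used here, so that reads in this overlap cannot be told apart. Gm19610 was at 15.2 CPM in colon and 78.7 CPM in small intestinal CD81- FBs, in the direction of Ereg. In SEMFs it was at 29.2 and 74.5 CPM, where Ereg differed little. Mthfd2l, a folate enzyme gene, ends 53254 bp upstream of Ereg and had 45.9 and 56.2 CPM in CD81- FBs. Epgn, Areg and Btc lie in the same stretch, with Areg starting 45953 bp downstream of Ereg. Areg was at 14.5 CPM in colon and 23.2 CPM in small intestinal CD81- FBs.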

How the data were processed

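Per the submitters' processing notes, the authors processed the reads with Cell Ranger 7.1.0, Seurat 4 and the mm10 build. The deposited files hold UMI counts per gene and cell, the authors' cell annotation, and natural log values. The last equal the natural log of 1 plus UMIs per 10000 UMIs of the cell, as checked over all cells. Cell totals ranged from 1502 to 25718 UMIs in the colon and from 820 to 19886 in the small intestine. No cell was removed. Scrublet (scanpy 1.11.5) called no doublet (0) among 6018 cells of the colon and 83 among 9359 (0.887%) of the small intestine. As it did not work in the colon, an alternative left out the 6% of cells with the highest scores (361 and 562).

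UMIs were summed per annotated type and library and given as CPM with exact Poisson intervals, shares of cells with Clopper-Pearson intervals, and tissue ratios with exact conditional binomial intervals (95%). A limit on a share of 0 is 3 cells of the total. Genes enter the background at a mean of 5 CPM, with 0.5 UMIs added. Nrg1-, Ereg- and Hbegf-positive cells were compared with negative cells in types with 50 positive cells or more, within 5 depth strata. Compared genes had 50 UMIs or more in the type and a UMI in 10% of the cells on the higher side. The text names the 5 highest and 3 lowest genes for Nrg1 and the 3 highest for Ereg and Hbegf by log2((observed + 10)/(expected + 10)) CPM. Mitochondrial, ribosomal, haemoglobin, immunoglobulin and sex-linked genes were left out of these comparisons. Genes were also named from lists of markers, family members and pathway genes, and as the 5 genes most like each ligand. A few genes that these rules select are not reported here.

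The ligands, lists and rules were chosen with earlier results of these data known. On data simulated from these libraries, the intervals held the true ratio for 97% of 200 altered genes in SEMFs (10767 genes), and the comparison of positive cells came within 0.5 log2 of it for 97.5% of 200 in colon SEMFs (6320 genes). In trophocytes (10308 genes) the intervals held it for 90.5% of 200. The simulated counts were drawn from the Poisson distribution that the intervals assume, so this coverage was largely set in advance. They lack the uneven spread over cells seen in the real data, and coverage under such a spread was not tested. Analyses used Python 3.11.15 with scipy 1.17.1.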

Additional observations from a re-analysis of the deposited data

Results flagged for a closer look

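Nrg1 differed between the tissues in opposite directions in different cell types. Its log2 ratio of colon to small intestine was 2.20 in SEMFs and 4.13 in LECs, the latter from 20 and 12 UMIs, and -0.55 in CD81- FBs. In LECs the summed SEMF markers (224 against 81.6 CPM) and CD81- FB markers (679.6 against 207.5 CPM) were higher in the colon too, and their part was not tested. The difference between these ratios was not tested, since each tissue has 1 library.

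Nrg1 and Ereg were also detected in the few cells annotated as proliferating, which entered no comparison. In the 4 such cells of the colon each stood at 130 CPM, from 4 UMIs in 2 cells. In the 24 of the small intestine Nrg1 was at 27.3 CPM, from 6 UMIs in 1 cell, and Ereg at 45.5 CPM, from 10 UMIs in 4 cells. These counts lie above the limit that a count of 0 allows (3 UMIs, which are 97.9 CPM in those 4 cells and 13.7 CPM in those 24).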

How the results depend on the processing

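No paired analysis was possible because each tissue has 1 library. The alternatives were counted against the 95% counting intervals, and 106 of 156 tissue ratios recomputed under an alternative stayed within them. The 156 include the differences on the natural log scale, another unit, which were counted as outside whatever their value. No ratio whose interval excluded 0 changed sign under these alternatives. Nrg1 in SMCs, whose interval included 0, went from 0.21 to between -1.12 and -0.003 under 7 of its alternatives. Averaging CPM over cells gave log2 ratios for Nrg1 of 0.84 over all fibroblasts, -0.72 in CD81- FBs and 2.04 in SEMFs, and for Ereg of -1.59 over all fibroblasts and -2.40 in CD81- FBs. Thinning to 3000 UMIs gave Nrg1 0.86 over all fibroblasts and -0.82 in CD81- FBs. Leaving out the highest doublet scores gave Nrg1 1.13 over all fibroblasts. Totals without mitochondrial and the 10 most abundant genes gave Nrg1 1.16 (fibroblasts) and -0.41 (CD81- FBs), and Ereg -1.36 and -2.18. Colon cells with Xist only gave Nrg1 1.13 over all fibroblasts and -0.28 in CD81- FBs, and Ereg -0.18 in SEMFs. Cells with Y-linked UMIs only gave Nrg1 -0.74 and Ereg -2.20 in CD81- FBs. On the deposited natural log scale, which is another unit, the differences of means over all fibroblasts, CD81- FBs and SEMFs were 0.10, -0.036 and 0.49 for Nrg1, -0.39, -0.82 and -0.13 for Ereg, and 0.085, 0.095 and 0.023 for Hbegf.

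Counts of genes 2-fold higher in Nrg1-positive cells depended on the cell threshold. With 2 or more UMIs against 0 they were 180 (colon CD81- FBs), 337 (colon SEMFs), 304 (small intestinal CD81- FBs) and 157 (small intestinal SEMFs), and those lower were 166 (colon CD81- FBs), 130 (colon SEMFs), 135 (small intestinal SEMFs) and 443 (small intestinal SMCs). Thinning, which leaves fewer UMIs per cell, gave 123 higher in colon SEMFs, 89 higher in small intestinal SMCs and 92 lower in small intestinal SEMFs. After thinning, the genes shared with those reported were 104 of 216 higher and 30 of 73 lower in colon SEMFs, 46 of 83 and 30 of 71 in colon CD81- FBs, 99 of 194 and 115 of 193 in small intestinal CD81- FBs, 50 of 169 and 86 of 230 in small intestinal SMCs, and 16 of 66 and 5 of 30 in small intestinal SEMFs. Without the highest doublet scores 46 were lower in small intestinal SEMFs. Colon CD81- FBs with Y-linked UMIs only had 180 higher and 149 lower. Of the named genes, 4 reversed: after thinning, Taf13 (-0.60) and Glis3 (-0.075) in Ereg-positive colon SMCs and Epha7 (-1.34) in Hbegf-positive small intestinal trophocytes, and Plekhm2 (-0.13) in Hbegf-positive colon CD81- FBs with Y-linked UMIs only. The cause was not tested. Values resting on 20 UMIs or fewer in 1 library were Nrg1 in trophocytes, Ereg in LECs, and Hbegf in SEMFs, SMCs and BECs. Nrg1 in LECs, Ereg in BECs and Hbegf in LECs rest on 20 UMIs or fewer in both libraries.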
